A study of Homo sapiens with 6 samples.

Results

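The genes described here encode the enzymes and carriers of fatty acid oxidation. They are 32 of the 58735 genes in the expression table, taken by symbol from a written list, and 29 of them passed the filter used for testing (a mean of at least 1 FPKM over the 6 libraries). FPKM is the number of fragments on a gene scaled by gene length and library size. The length used is that of all annotated exons merged, so levels of different genes can be compared only roughly. Library sums of FPKM ran from 285966 to 299442, and rescaling them to a common sum (TPM) is among the alternatives. MM.1S, a long-established line of human myeloma cells, gave RNA for 3 control libraries (transfected with si-NC) and 3 PRMT1 KD libraries (transfected with si-PRMT1). The siRNA was used at 100 nM and cells were collected after 72 h, as the study's methods and legends give it, and nothing else is labelled as differing between the groups. The knockdown was transient and in a single cell line, and nothing in the labels says that the libraries of a group came from separate cultures, so p-values measure only the spread between these libraries. The question was how the expression of the oxidation genes differed between control and PRMT1 KD cells.

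Fatty acids are first activated to acyl-CoA by the acyl-CoA synthetases. Long chains are then carried into mitochondria as acylcarnitines by the carnitine shuttle, made up of CPT1 on the outer membrane, the carrier SLC25A20 and CPT2 on the inner membrane. Inside, an acyl-CoA dehydrogenase, an enoyl-CoA hydratase, a hydroxyacyl-CoA dehydrogenase and a thiolase act in turn and release acetyl-CoA with each cycle. Electrons from the dehydrogenases pass through the electron transfer flavoprotein (ETF) and ETFDH to ubiquinone. Peroxisomes hold a parallel route for very long and branched chains. PRMT1 is the main type I protein arginine methyltransferase.

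None of the 29 genes tested passed an adjusted p of 0.05 in limma, against 2.05% of all 13585 genes tested (279 genes). The log2 fold changes furthest from 0 were those of ACSL5 and SLC25A20, at the entry of the pathway. ACSL5 stood at 72.9% of its control level and SLC25A20 at 79.1%, both with every PRMT1 KD library under every control library. CPT1A stood at 111% of control with every PRMT1 KD library above. In the matrix cycle, HADHA, HADHB and ACADVL stood at 96.8% to 101% of control, and ACADM and HSD17B10 at 90.0% and 90.6% with overlapping groups. An unadjusted limma p under 0.05 was found for 5 genes with lower values (17.2% of the 29, against 9.47% of all genes tested) and for 1 gene with a higher value (3.45%, against 10.1%). With a replicate block in the fit, 8 of the 29 had such a p, and ACSL3 and ACSL4 joined CPT1A among those with higher values. The share of all genes tested in that fit is not given here, so this count has no background beside it.

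The targeted gene was measured first. PRMT1 (ENSG00000126457, GRCh38 chr19:49675786-49689029, + strand) stood at 61.7, 62.8 and 58.9 FPKM in the control libraries and at 13.3, 14.0 and 12.5 FPKM in the PRMT1 KD libraries. It fell to 21.7% of control (log2 fold change -2.13, SE 0.055, limma adjusted p = 2.77e-05). The 3 siRNAs that the study lists against PRMT1 are shown with the bases that pair with positions 2 to 8 of the guide strand in capitals, since such a seed match in a 3′ UTR is what an siRNA shares with genes other than its target.
si-PRMT1-1, in 11 of the 11 annotated coding transcripts of PRMT1: gcaactccatgTTTCATAa
si-PRMT1-2, in 4 of these 11: agacggtgttcTACATGGa
si-PRMT1-3, likewise in 4 of 11: ccatcgacctgGACTTCAa
Which of them went into the sequenced cells is not given in the sources used here. No oxidation gene held a whole target. Seed matches lay in an annotated 3′ UTR of 4 of the 29 genes for the first (ACADM, ACADSB, ACSL3 and ETFA, 13.8%, against 22.8% of 10054 expressed genes with a 3′ UTR). For the second they lay in ACADSB, ACSL3 and ETFDH (10.3%, against 10.1%) and for the third in ACADM and ACADSB (6.9%, against 14%). ACSL5, SLC25A20, CPT1A, ECH1, ETFB and HSD17B4 held none.

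The libraries held 14439217 to 16465026 reads on genes, worked back from FPKM and gene length. All 8 plasma cell markers looked at were above 1 FPKM (summed level 858 to 874 FPKM in control and 833 to 879 FPKM in PRMT1 KD libraries), although 1 of them, SLAMF7, fell from a mean of 38.0 to 23.8 FPKM (limma adjusted p = 0.00515). Of the 3 T cell markers, CD3E stood at 32.1 to 39.0 FPKM in all libraries, while CD3D was at most 0.845 FPKM and CD2 at most 0.037 FPKM. Mature B cell markers reached at most 1.3 FPKM with MS4A1 at 0, and the 8 myeloid, stromal and erythroid markers did not pass 0.145 FPKM in any library. In these bulk samples, fewer cells of a kind and less RNA per cell cannot be told apart.

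**Figure D1:**
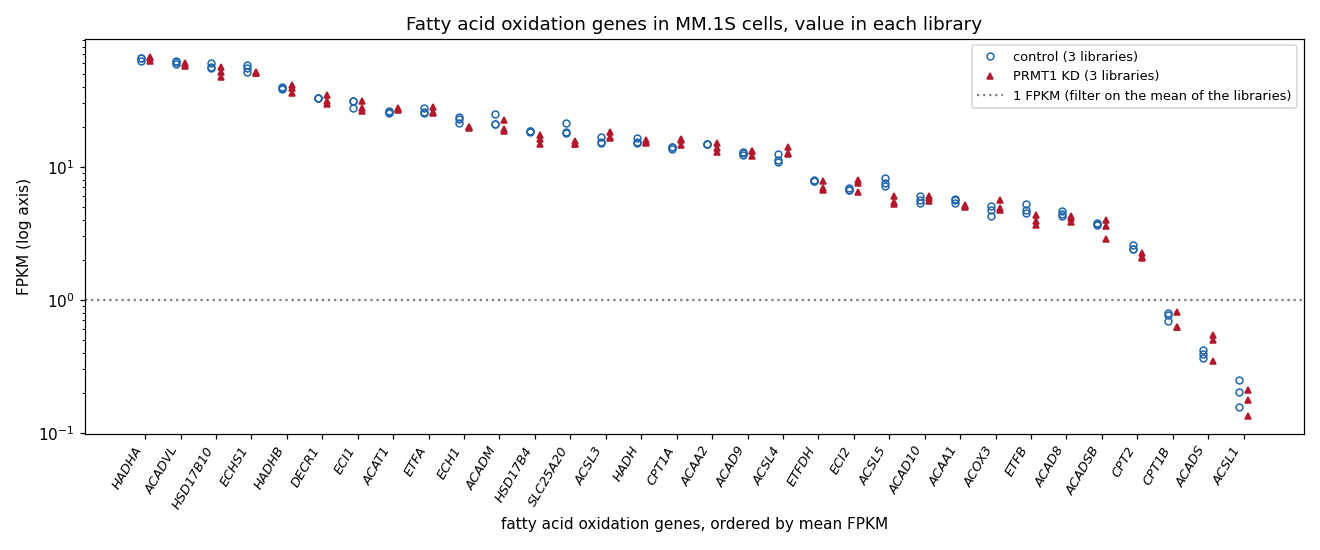
FPKM (log axis) of each of the 32 oxidation genes in the 3 control libraries (open circles) and the 3 PRMT1 KD libraries (filled triangles), ordered by mean level, with the filter of 1 FPKM as a dotted line. HADHA and ACADVL lead at about 57 to 67 FPKM, and CPT1B, ACADS and ACSL1 lie under the line.

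Most of the pathway was expressed well above the filter. The median over the 29 genes tested was 15.6 FPKM, against 6.31 FPKM over all genes tested, and the mean number of reads per gene and library ran from 297 (ACOX3) to 4635 (ACADVL) with a median of 1158. The highest levels in FPKM were those of HADHA, ACADVL, HSD17B10 and ECHS1, and the lowest that of CPT2, the inner shuttle enzyme, at 2.06 to 2.60 FPKM. This order depends on the merged exon lengths. HADH, at 12086 bases, had a mean of 2989 reads and 15.6 FPKM. HSD17B10, at 1115 bases, had 968 reads and 54.5 FPKM. The 3 genes that did not pass the filter were ACSL1 (0.135 to 0.250 FPKM), ACADS (0.347 to 0.549 FPKM) and CPT1B (0.620 to 0.813 FPKM). They are the synthetase abundant in liver and fat, the short-chain dehydrogenase and the muscle form of CPT1. Their means of 18 to 46.8 reads per library give little precision, and the groups overlapped in each of them. CPT1B also shares 66.4% of its length with the readthrough gene CHKB-CPT1B, so its reads are uncertain.

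In the activation step ACSL5 had lower values and ACSL3 and ACSL4 had higher ones, none past the threshold. ACSL5 (ENSG00000197142, GRCh38 chr10:112374018-112428380, + strand), a synthetase of the outer mitochondrial and endoplasmic reticulum membranes, stood at 7.54, 8.23 and 7.21 FPKM in control and at 5.39, 5.28 and 6.08 FPKM in PRMT1 KD libraries. The groups did not overlap, and the means were 7.66 ± 0.517 FPKM in control and 5.58 ± 0.431 FPKM in PRMT1 KD libraries (SD, n = 3 each). The log2 fold change, on the log2(FPKM + 1) scale used throughout, was -0.40 (SE 0.0739, 95% interval -0.57 to -0.22, limma unadjusted p = 0.00104). The limma adjusted p was 0.0501, just over the threshold, and it was the 282nd smallest of the 13585. ACSL5 passed in 4 of 15 alternative settings, namely a filter of 5 FPKM (limma adjusted p = 0.0270), rescaling to TPM (0.0453), quantile normalization (0.0452) and limma's voom on the reads (0.00714). Over all 15 its adjusted p ran from 0.00714 to 0.181. On the opposite strand, 144 bases (3.4% of its length) overlap ZDHHC6, which is expressed at 16.1 FPKM. A strand setting for the counting is not given in the sources used here.

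ACSL4, a synthetase with a preference for arachidonic acid, stood at 10.9, 11.3 and 12.5 FPKM in control and at 12.5, 12.6 and 14.2 FPKM in PRMT1 KD libraries. The groups overlapped only at their edges, and the log2 fold change was 0.17 (95% interval -0.0035 to 0.34, limma adjusted p = 0.264). ACSL3, the synthetase of lipid droplets and the endoplasmic reticulum, was at 15.0 to 16.7 FPKM in control and 16.5 to 18.3 FPKM in PRMT1 KD libraries (log2 fold change 0.12, limma adjusted p = 0.348). The synthetase with values below control was also the one with the lowest level of the 3 tested.

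The carnitine shuttle likewise held a gene with higher values and genes with lower ones. CPT1A (ENSG00000110090, GRCh38 chr11:68754620-68844410, - strand), the malonyl-CoA-sensitive enzyme that commits long chains to mitochondrial entry, was at 14.0, 14.1 and 13.7 FPKM in control and at 15.8, 16.2 and 14.5 FPKM in PRMT1 KD libraries. Every PRMT1 KD library was above every control library, the means being 13.9 ± 0.215 FPKM and 15.5 ± 0.873 FPKM (SD, n = 3 each). The log2 fold change was 0.14 (SE 0.0546, 95% interval 0.015 to 0.27) and did not pass (limma adjusted p = 0.210, and 0.122 to 0.447 over the alternatives).

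SLC25A20 (ENSG00000178537, GRCh38 chr3:48856931-48898993, - strand), the carnitine-acylcarnitine carrier, stood at 21.1, 17.9 and 18.3 FPKM in control and at 14.9, 14.9 and 15.6 FPKM in PRMT1 KD libraries. The PRMT1 KD libraries lay close together, under the lowest control library, and the mean went from 19.1 ± 1.79 FPKM to 15.1 ± 0.403 FPKM (SD, n = 3 each). Its log2 fold change was -0.32 (SE 0.0703, 95% interval -0.48 to -0.15, limma adjusted p = 0.0755). It passed in 2 of 15 alternatives, with a filter of 5 FPKM (limma adjusted p = 0.0400) and with voom (0.0296), and the adjusted p ran up to 0.206. CPT2, which reforms acyl-CoA inside, was at 2.39, 2.60 and 2.41 FPKM in control and 2.10, 2.25 and 2.06 FPKM in PRMT1 KD libraries. These groups did not overlap either, though the interval of its log2 fold change of -0.15 ran from -0.33 to 0.044 (limma adjusted p = 0.370).

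**Figure D2:**
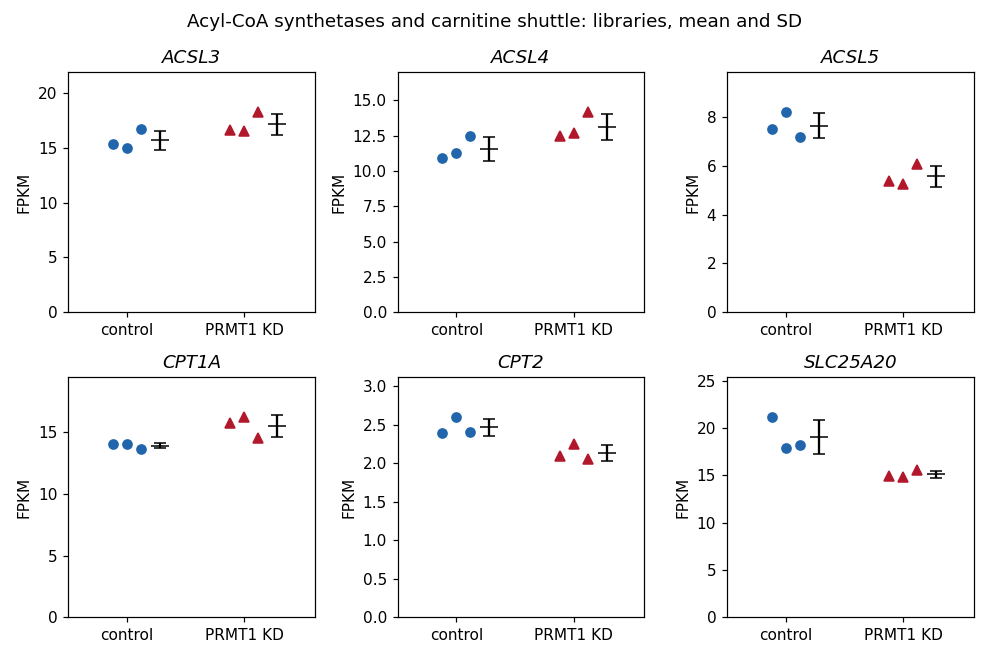
FPKM of 3 acyl-CoA synthetases and 3 shuttle genes in each library (points), with the mean and SD of each group (bars, n = 3). ACSL5, CPT2 and SLC25A20 have every PRMT1 KD library under the control libraries and CPT1A has every one above, while ACSL3 and ACSL4 overlap.

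The promoter windows of the entry genes are shown because ACSL5 and SLC25A20 had the differences furthest from 0 in the pathway. They are RefSeq windows on GRCh38.p14, from 250 bases before to 50 bases after a start site, and 27 of the 32 genes had at least 1. The windows are the first of the pair listed for ACSL5, at chr10:112375018-112375317 (+ strand), with the nuclear receptor element AGGTCA in capitals, and SLC25A20 at chr3:48898833-48899132 (- strand), with the GC box GGGCGG or its complement CCGCCC in capitals.
ACSL5: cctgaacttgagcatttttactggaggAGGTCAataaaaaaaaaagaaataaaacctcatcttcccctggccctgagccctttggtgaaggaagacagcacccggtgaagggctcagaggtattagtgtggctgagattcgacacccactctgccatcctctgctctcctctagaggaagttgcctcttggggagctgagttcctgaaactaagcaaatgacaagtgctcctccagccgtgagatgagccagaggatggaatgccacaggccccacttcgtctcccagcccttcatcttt
SLC25A20: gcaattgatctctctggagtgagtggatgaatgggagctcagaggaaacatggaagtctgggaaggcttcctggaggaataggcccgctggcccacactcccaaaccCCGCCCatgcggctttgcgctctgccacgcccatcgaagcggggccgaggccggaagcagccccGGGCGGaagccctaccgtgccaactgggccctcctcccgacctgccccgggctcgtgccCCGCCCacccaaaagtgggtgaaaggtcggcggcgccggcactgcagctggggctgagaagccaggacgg
The ACSL5 window shown has 51% GC and no GC box, and the other, at chr10:112375955-112376254, has 50% GC and neither AGGTCA nor a GC box, whereas that of SLC25A20 has 67% GC and 3 GC boxes. AGGTCA, searched on both strands, was in 2 of the 39 windows of the oxidation genes (ACSL5 and ACAD10, 5.13%), against 10.2% of the windows of all genes tested and 13.8% of all 35116 windows. The GC box was in 29 of 39 windows (74.4%, from 24 of the 27 genes), against 66.6% and 45%, and it was missing from those of ACSL5, CPT1A and ACAA2. The NRF1 motif was in 2 windows (ACAD9 and ETFB, 5.13%, against 11.1% and 5.78%). Neither the PPAR-RXR direct repeat (AGGTCA repeated with 1 base between) nor the estrogen-related receptor element TCAAGGTCA, both of which contain AGGTCA, was found. They were in 0.0412% and 0.19% of the windows of genes tested. These matches describe letters in short windows only.

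Among the acyl-CoA dehydrogenases, which open each cycle and are sorted by chain length, none of the 6 tested had groups that separated, and the median log2 fold change was -0.066. ACADVL, for very long chains, stood at 60.8, 62.5 and 59.3 FPKM in control and at 60.3, 59.3 and 57.2 FPKM in PRMT1 KD libraries. Its log2 fold change was -0.046 with a narrow 95% interval of -0.15 to 0.055 (limma adjusted p = 0.597), and it was -0.025 without PRMT1 KD 3 and -0.027 without control 2. ACADM, for medium chains, was at 21.1, 20.9 and 24.8 FPKM in control and 18.4, 19.4 and 22.3 FPKM in PRMT1 KD libraries, so the third library was the highest of each group. The log2 fold change was -0.15 (95% interval -0.36 to 0.072, limma adjusted p = 0.438), and it was -0.068 without control 3, -0.090 without PRMT1 KD 1 and -0.22 without PRMT1 KD 3. For the others the log2 fold change lay between -0.10 (ACAD8, the isobutyryl-CoA dehydrogenase of valine breakdown) and 0.022 (ACAD9, also an assembly factor of complex I), with ACADSB at -0.087 and ACAD10 at 0.019.

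HADHA and HADHB encode the α and β subunits of the mitochondrial trifunctional protein, which carries out the last 3 reactions on long chains. HADHA (GRCh38 chr2:26190635-26244726, - strand) was at 65.6, 65.4 and 62.4 FPKM in control and at 62.1, 67.0 and 65.7 FPKM in PRMT1 KD libraries. HADHB (GRCh38 chr2:26243170-26290468, + strand) was at 38.3, 39.1 and 39.8 FPKM in control and at 36.0, 39.3 and 41.5 FPKM in PRMT1 KD libraries. The groups overlapped for both subunits. The 95% interval of the log2 fold change was -0.10 to 0.12 for HADHA (estimate 0.010, limma adjusted p = 0.932) and -0.15 to 0.13 for HADHB (estimate -0.0076, limma adjusted p = 0.963), and either sign turned under 3 of 15 alternatives. The genes lie head to head. Their RefSeq start sites are 307 bases apart, although the GENCODE coordinates given above overlap at this end. Their promoter windows share 194 bases, so the pair of windows is shown with GC boxes in capitals, HADHA at chr2:26244583-26244882 (- strand) and HADHB at chr2:26244689-26244988 (+ strand).
HADHA: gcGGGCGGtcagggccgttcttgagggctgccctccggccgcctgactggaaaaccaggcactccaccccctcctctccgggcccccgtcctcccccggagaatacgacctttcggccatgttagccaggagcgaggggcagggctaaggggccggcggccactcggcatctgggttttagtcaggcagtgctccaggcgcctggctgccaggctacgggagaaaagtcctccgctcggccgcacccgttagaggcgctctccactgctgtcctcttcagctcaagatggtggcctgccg
HADHB: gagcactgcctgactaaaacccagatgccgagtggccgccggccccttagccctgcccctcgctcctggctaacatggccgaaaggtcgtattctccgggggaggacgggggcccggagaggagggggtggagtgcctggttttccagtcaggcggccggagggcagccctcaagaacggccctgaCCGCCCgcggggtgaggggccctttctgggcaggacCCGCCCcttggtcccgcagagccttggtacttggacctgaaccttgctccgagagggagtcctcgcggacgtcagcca
The windows have 67.7% and 68% GC, with 1 and 2 GC boxes. The box of HADHA lies in the shared bases and is the same as the first box marked for HADHB, read on the other strand.

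Of the other hydratase, dehydrogenase and thiolase genes, none had an unadjusted limma p under 0.05. ACAT1, the mitochondrial acetoacetyl-CoA thiolase, was at 25.9, 26.1 and 25.5 FPKM in control and 26.9, 27.3 and 27.7 FPKM in PRMT1 KD libraries. The groups separated by a small margin (log2 fold change 0.076, 95% interval -0.020 to 0.17, limma adjusted p = 0.354). ECHS1, the short-chain hydratase, was at 51.3 to 58.4 FPKM in control and 50.3 to 51.6 FPKM in PRMT1 KD libraries (log2 fold change -0.11). HSD17B10, which also acts in isoleucine breakdown, had a log2 fold change of -0.14, ACAA2 of -0.078 and HADH of -0.019, all with overlapping groups. The median over these 7 genes was -0.019, 0.00022 after rescaling to TPM, and -0.054 (without PRMT1 KD 3) to -0.0033 (without PRMT1 KD 1) with a library left out.

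Among the auxiliary enzymes, which handle double bonds that the main cycle cannot, ECH1 had the difference furthest from 0. ECH1, a dienoyl-CoA isomerase, was at 23.0, 23.5 and 21.2 FPKM in control and at 19.7, 19.8 and 19.9 FPKM in PRMT1 KD libraries. The PRMT1 KD libraries were nearly equal and lay under all control libraries. The log2 fold change was -0.18 (SE 0.051, 95% interval -0.30 to -0.057), and it did not pass (limma adjusted p = 0.125). The isomerases ECI1 and ECI2 had log2 fold changes of -0.083 and 0.098 and the dienoyl-CoA reductase DECR1 of -0.045, each with overlapping groups.

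In electron transfer, ETFB and ETFDH had lower values and the groups of ETFA overlapped. ETFB, the β subunit, was at 5.25, 4.51 and 4.73 FPKM in control and at 3.63, 4.34 and 3.92 FPKM in PRMT1 KD libraries, without overlap. Its log2 fold change was -0.23 (SE 0.0823, 95% interval -0.43 to -0.038, limma adjusted p = 0.186). ETFA, the α subunit, was at 25.4 to 27.4 FPKM in control and 25.3 to 28.3 FPKM in PRMT1 KD libraries (log2 fold change 0.015, limma adjusted p = 0.924). ETFDH, which passes the electrons on to ubiquinone, was at 7.81, 7.84 and 7.92 FPKM in control and at 6.98, 6.65 and 7.76 FPKM in PRMT1 KD libraries. The groups separated, but PRMT1 KD 3 was only just under control (log2 fold change -0.13, 95% interval -0.28 to 0.027, limma adjusted p = 0.340). Without PRMT1 KD 2 it was -0.083. ETFDH shares 490 bases (10.9% of its length) with PPID on the opposite strand, at 19.1 FPKM.

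Of the peroxisomal genes, HSD17B4, the D-bifunctional protein with hydratase and dehydrogenase activities, was at 18.6, 18.3 and 18.5 FPKM in control and at 14.9, 16.2 and 17.4 FPKM in PRMT1 KD libraries. The control libraries were nearly equal and the PRMT1 KD libraries were spread out beneath them. The log2 fold change was -0.18 (SE 0.0623, 95% interval -0.33 to -0.037, limma adjusted p = 0.169). The thiolase ACAA1 was at 5.69, 5.32 and 5.59 FPKM in control and 5.20, 5.04 and 5.01 FPKM in PRMT1 KD libraries, again without overlap (log2 fold change -0.10, limma adjusted p = 0.369). ACOX3, the oxidase for branched chains, overlapped between the groups (log2 fold change 0.093, limma adjusted p = 0.580).

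**Figure D3:**
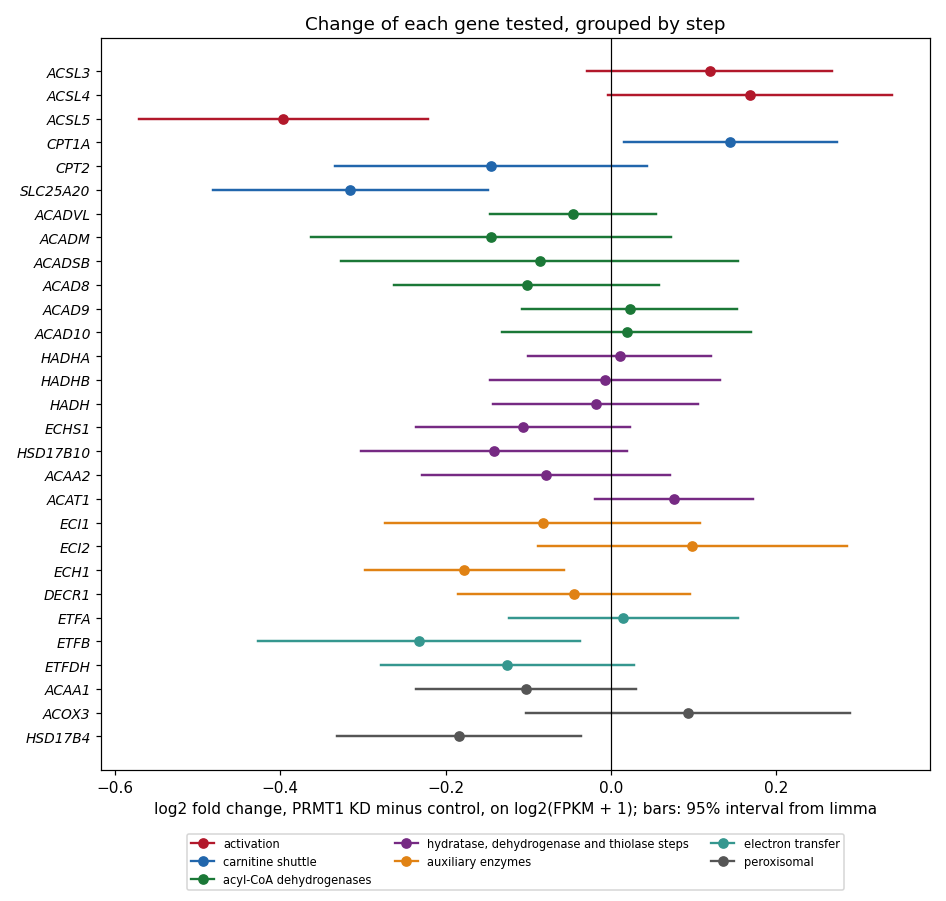
Log2 fold change (PRMT1 KD minus control, on log2(FPKM + 1)) of the 29 genes tested with its 95% interval from limma, coloured by step. The intervals of ACSL5, SLC25A20, ECH1, ETFB and HSD17B4 lie wholly below 0 and that of CPT1A wholly above, before any adjustment for the number of genes.

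Counted over the list, 19 of the 29 genes tested had a lower mean and 10 a higher one (65.5% lower, against 47.4% of all genes tested). The median log2 fold change was -0.078, against 0.0095 over all genes tested, and it was -0.050 without PRMT1 KD 2 and -0.052 without control 1. The median size of the difference regardless of sign was 0.10, against 0.11 for all genes tested. All 3 PRMT1 KD libraries lay below all 3 control libraries for 8 genes (27.6%, against 12.3% of all genes tested), namely ACSL5, CPT2, SLC25A20, ECH1, ETFB, ETFDH, ACAA1 and HSD17B4. All lay above for CPT1A and ACAT1 (6.9%, against 13.6%). These shares are a description without a test. The number of oxidation genes with an unadjusted limma p under 0.05 was 3 when control 1 was left out. In that fit 13 genes of the whole series changed at the adjusted threshold, against 279 in the main fit. The share of all genes at an unadjusted p without control 1 is not given here. An exact two-sided permutation test of a single gene over 3 against 3 libraries cannot go below 0.1, and p was 0.1 for each of these 10 genes.

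By step, the medians of the log2 fold changes were 0.12 for activation, -0.15 for the shuttle, -0.066 for the dehydrogenases, -0.064 for the auxiliary enzymes, -0.13 for electron transfer and -0.10 for the peroxisomal genes, over 3 to 6 genes each. Single libraries moved them, to 0.075 for activation without PRMT1 KD 3, and to -0.024 for the dehydrogenases, -0.031 for the auxiliary enzymes and -0.083 for electron transfer without PRMT1 KD 2. The filter moved them too, to 0.042 for activation with no filter, and with a filter of 5 FPKM to -0.086 for the shuttle, -0.014 for the dehydrogenases and -0.056 for electron transfer. Other moves went away from 0. The shuttle was at -0.21 with voom and the peroxisomal genes at -0.14 with a filter of 5 FPKM. Electron transfer was at -0.18 without PRMT1 KD 3 and activation at 0.16 without control 3. The PRMT1 KD libraries did not carry the difference of the 29 genes equally. The median deviation of the 29 genes from the control mean was -0.060 in PRMT1 KD 1, -0.084 in PRMT1 KD 2 and -0.016 in PRMT1 KD 3, where 21, 19 and 15 genes were under the control mean. In the control libraries it ran from -0.024 to 0.012, with 15, 12 and 19 genes under the control mean. By this count PRMT1 KD 2 and 3 were within the range of the control libraries. By the median deviation only PRMT1 KD 3 was, and PRMT1 KD 1 and 2 lay below it. The control mean is made from the control libraries themselves, so the groups are not compared on equal terms.

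**Figure D4:**
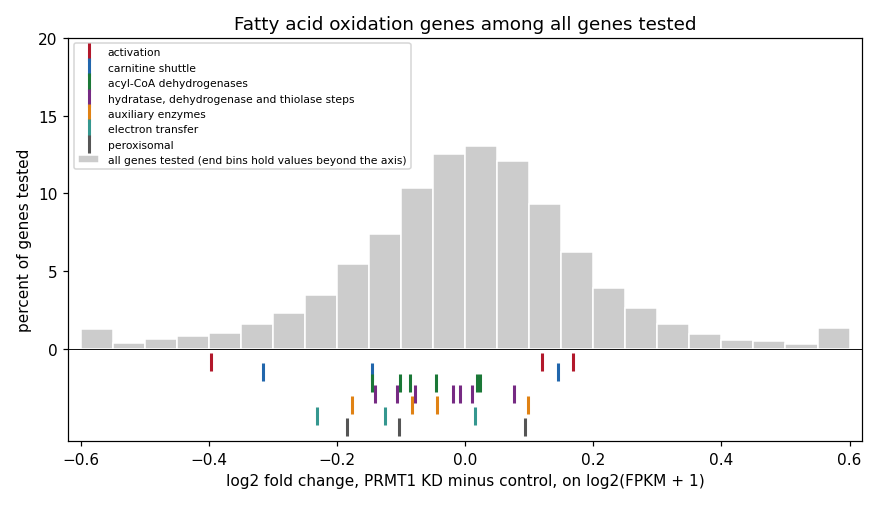
Histogram of the log2 fold changes of all 13585 genes tested (percent of genes per bin, end bins holding values beyond the axis), with a tick for each oxidation gene beneath, in a row for each step. The ticks lie between -0.40 and 0.17, 19 of 29 of them to the left of 0.

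Of 79 further genes of fatty acid uptake, carnitine supply, acyl-CoA hydrolysis, peroxisomal import, related oxidation and its regulation, 53 passed the filter. Only ACOT9 changed (1 of 53, against 2.05% of all genes tested). ACOT9, a mitochondrial acyl-CoA thioesterase that splits acyl-CoA back to the free acid, was at 16.0, 15.1 and 15.5 FPKM in control and 11.1, 11.5 and 11.0 FPKM in PRMT1 KD libraries. It fell by 0.44 on the log2 scale (SE 0.0478, limma adjusted p = 0.0154), and the call held in 10 of 15 alternatives and was lost in 5 of the 6 fits that left out a library (adjusted p up to 0.113), all but the one without control 3. At an unadjusted limma p under 0.05, 4 of the 53 were lower and 4 higher (7.55% each, against 9.47% and 10.1% of all genes tested). The median log2 fold change was -0.029, against 0.0095 over all genes tested.

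Several genes of the substrate supply and the transcription of the pathway were picked by name, whatever their values. The acetyl-CoA carboxylases, which make the malonyl-CoA that inhibits CPT1, had means of 2.92 and 3.27 FPKM for ACACA (log2 fold change 0.12, limma adjusted p = 0.403) and 1.49 and 1.36 FPKM for ACACB (-0.073, limma adjusted p = 0.763). Of the nuclear receptors that bind fatty acids, PPARA was at 2.59 and 2.60 FPKM and PPARD at 7.47 and 6.95 FPKM (log2 fold change -0.090, limma adjusted p = 0.515). The log2 fold change was -0.015 for ACACB and -0.034 for PPARD without control 1, and for ACACB -0.14 without control 3 and -0.044 without PRMT1 KD 3. The other transcriptional regulators on the list, named after their values were seen, did not pass either. PPARGC1A, PPARGC1B, ESRRA and NCOR1 had limma adjusted p from 0.283 (PPARGC1A, log2 fold change -0.15) to 0.659 (NCOR1), and RXRA, PPARG and HNF4A lay under the filter. MLYCD, which removes malonyl-CoA, lay under the filter at 0.447 to 0.594 FPKM. The fatty acid translocase CD36 and the carnitine transporter SLC22A5 averaged 0.167 reads over the libraries, a single read in 1 PRMT1 KD library each, so no difference was detectable at this depth.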

How the data were processed

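The authors deposited FPKM values per gene for 6 RNA-seq libraries, with gene length and coordinates. The submitters' processing notes name featureCounts 1.5.0-p3 and hg38. The aligner and the strand setting are not given in the sources used here. FPKM multiplied by gene length and divided by the smallest such product above 0 in its library gave whole reads for 100% of values above 0 (tolerance 0.01). All 32 genes had the coordinates and merged exon length of GENCODE 29, and 17 share exon bases with another gene.

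Genes averaging 1 FPKM or more were tested on log2(FPKM + 1) with limma 3.58.1 (R 4.3.3; empirical Bayes with a trend, two-sided, Benjamini-Hochberg over all 13585 genes, no block), and called changed at an adjusted p under 0.05. The pseudocount understates fold changes of low genes. The script was tested on simulated data with larger changes than those of the oxidation genes, so how often differences of their size would be found was not tested.

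The genes, lists and tests were chosen with earlier results of these data known. Values per library are given for genes with an unadjusted p under 0.05 or separate groups, and for CPT1A, CPT2, HADHA, HADHB, ACADVL, ACADM, ETFDH and HSD17B4. Related genes are named at an adjusted p under 0.05, with ACACA, ACACB, MLYCD, PPARA, PPARD, CD36 and SLC22A5 whatever their values (other related genes were named after their values were seen); a result covered by this rule is left out here. Promoters came from RefSeq and siRNA sequences from the study's supplement. Alternatives covered pseudocount, filter, scaling, trend, replicate block, voom on reads, the unadjusted threshold and each library left out.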

Additional observations from a re-analysis of the deposited data

How the results depend on the processing

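The number of genes changed (279) was 35 with no filter, 473 with a mean of at least 5 FPKM, 43 without the trend and 927 with voom on reads. It was 355 after rescaling to TPM, 325 after quantile normalization, 2655 at an unadjusted limma p and 13 to 94 with a library left out. The filter of 5 FPKM also tests fewer genes, so its count is not a share of the genes tested in the main fit. Against 0 oxidation genes changed in limma (6 at an unadjusted p), there were 0 to 0 with a library left out, 1 each after rescaling to TPM and quantile normalization (ACSL5), and 2 each with at least 5 FPKM and with voom (ACSL5 and SLC25A20). Their median of -0.078 was -0.052 with no filter, -0.045 with at least 5 FPKM and -0.068 to -0.050 with a library left out, and 15 to 21 genes were lower. Related genes changed numbered 2 with voom and 0 to 1 with a library left out. Signs turned for HADHB (0.012 with TPM, -0.054 to 0.046 with a library left out), HADHA (-0.0079 with equal medians, -0.013 to 0.042) and PPARA (-0.013, and -0.037 to 0.047), none with an adjusted p under 0.66. The cause was not tested. PRMT1 fell in all 15 alternatives (-2.21 to -2.09). The pseudocount of 0.1 changed no count past 1.5 times. In the fit with a replicate block, 204 genes and 0 oxidation genes changed (limma adjusted p = 0.0717 for ACSL5 and 0.0744 for SLC25A20). At an unadjusted limma p, 5 oxidation genes were lower (ACADM in place of ETFB) and 3 higher (ACSL3 and ACSL4 besides CPT1A), against 5 and 1. The share of all genes at an unadjusted p in that fit is not given here, so these counts have no background beside them. Same-numbered libraries deviated together by r = 0.020, 0.063 and 0.10, and each correlated best with its own number, which is a hint from the data and not part of the design. Depth limits ACSL1, ACADS and CPT1B.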

Other observations

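Ratios between partner genes, chosen after their values were seen and therefore given as a description with no test, were as follows. The size of each ratio depends on the merged exon lengths, which are the same in both groups. ACSL5 made up 22.2%, 23.7% and 19.7% of the summed FPKM of the 4 synthetases in control cells, against 15.6%, 15.3% and 15.7% after PRMT1 KD. The ratio of ACSL5 to ACSL4 was 0.667 ± 0.0798 (SD, n = 3) in control and 0.426 ± 0.00767 (SD, n = 3) in PRMT1 KD libraries. CPT1A exceeded CPT2 by 5.87, 5.41 and 5.68 times in control and 7.52, 7.23 and 7.06 times in PRMT1 KD libraries. ETFA exceeded ETFB by a mean of 5.44 times in control and 6.72 times in PRMT1 KD libraries. The ratio of HADHA to HADHB, the subunits of the trifunctional protein, was 1.65 ± 0.0764 in control and 1.67 ± 0.0773 in PRMT1 KD libraries (SD, n = 3 each).

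Further related genes outside the naming rule were picked after their values were seen, and none passed. EHHADH, the L-bifunctional enzyme, had mean levels of 3.13 FPKM in control and 2.45 FPKM in PRMT1 KD libraries (log2 fold change -0.27, limma adjusted p = 0.197). ACOX2, the peroxisomal oxidase of bile acid intermediates, had 3.06 and 2.40 FPKM (log2 fold change -0.27, limma adjusted p = 0.321). HILPDA, an inhibitor of lipolysis at lipid droplets, had 5.91 and 4.41 FPKM (log2 fold change -0.35, limma adjusted p = 0.175). ACBD5, which tethers peroxisomes to the endoplasmic reticulum, had 8.99 and 10.8 FPKM (log2 fold change 0.24, limma adjusted p = 0.129), and the fatty acid importer ABCD3 had 7.83 and 9.07 FPKM (log2 fold change 0.19, limma adjusted p = 0.256). In each of these 5 genes the 3 PRMT1 KD libraries lay on 1 side of the 3 control libraries. Over all 53 related genes tested this held for 8 with lower values (15.1%, against 12.3% of all genes tested) and 5 with higher ones (9.43%, against 13.6%), shares near those of all genes.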
